A study of Mus musculus with 2 samples.

Results

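The Toll-like receptors and their adaptors were examined in RNA-seq data of leukemic stem cells (LSCs) from mice with experimental chronic myeloid leukemia (CML). They are 10 genes of the 23284 gene symbols listed for each library, chosen by symbol with earlier results of these data known. The receptors of the cell surface are Tlr1, Tlr2, Tlr4 and Tlr6, and the receptors of the endosome are Tlr3, Tlr7 and Tlr9. The other genes are the co-receptor Cd14, the adaptor Myd88 and the kinase-like inhibitor Irak3. Both groups carried BCR-ABL: LSK cells, which lack lineage markers and bear Sca-1 and c-Kit, were taken from Ly5.2 donors on the C57BL/6J background, transduced with a BCR-ABL and GFP retrovirus and given to lethally irradiated Ly5.1 recipients. GFP+ CD45.2+ LSK cells were then sorted from the bone marrow of primary recipients. The donors were wild type (WT) in one library and STAP-1 KO, with a targeted disruption of the Stap1 gene, in the other. The comparison asks which transcripts differ when CML LSCs lack STAP-1, an adaptor protein that binds BCR-ABL. The sources used here do not state how many mice were pooled for a library. Each genotype was sequenced as 1 library, so differences lack a replicate check and p-values were not computed.

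Toll-like receptors recognize molecules that microbes share. Tlr2 senses bacterial lipoproteins as a pair with Tlr1 or Tlr6, and Tlr4 senses lipopolysaccharide together with the secreted protein Ly96 (MD-2), to which Cd14 hands over the ligand. Tlr3, Tlr7 and Tlr9 meet double-stranded RNA, single-stranded RNA and unmethylated CpG DNA inside endosomes. All of these receptors except Tlr3 signal through Myd88, which assembles Irak kinases and Traf6 and leads to NF-kB, whereas Tlr3 uses Ticam1 (TRIF) and Tlr4 uses both adaptors. Irak3 (IRAK-M) restrains the Irak complex. Blood stem and progenitor cells carry several of these receptors, and their ligands are known to drive such cells into the myeloid lineage.

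Values are FPKM, that is fragments per kilobase of transcript, scaled to the mapped fragments, as deposited, so levels can be compared between genes per length. A gene was called lower or higher when the libraries differed 2-fold or more and each held 0.1 FPKM or more. Log2 ratios were taken after 0.1 FPKM was added to both values and are of STAP-1 KO over WT, so those of low genes are understated, whereas folds are ratios of the deposited values with nothing added. The files give no counts, but their low values fall on steps that match an effective depth of 7500000 reads for WT and 10470000 reads for STAP-1 KO. Reads behind each value were estimated from these depths and from the longest annotated coding transcript. The 95% intervals (exact, Clopper-Pearson) of folds rest on those estimates and cover counting error only, not differences between mice or preparations. For a transcript of 3000 bases, 3 reads, the limit that a count of 0 allows, correspond to 0.143 FPKM for WT and 0.103 FPKM for STAP-1 KO. Stap1, the targeted gene, was at 62.0 FPKM in WT and 0.309 FPKM in STAP-1 KO cells, the direction the labels give. LSK and stem cell markers were read beside the labelled cell type, and 8 of 9 were at 1 FPKM or more in each library. That level does not single out the cell type, since all 9 mast cell and basophil markers also reached it in both libraries. Kit was at 468 FPKM in WT and 30.1 FPKM in STAP-1 KO cells, and Ly6a (Sca-1) at 285 and 106 FPKM.

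Transcripts of 5 of the 7 Toll-like receptors were lower in STAP-1 KO LSCs, where 22.9% of all 12507 genes that could be compared were called lower and 12.3% higher. All 4 surface receptors were among them, with folds from 2.37 for Tlr6 to 11.9 for Tlr2, and the endosomal receptor Tlr3 was 3.93-fold lower. Tlr7 was not called and Tlr9 was at the detection limit in both libraries. Among the other genes, Cd14 was 3.52-fold higher, Irak3 was 1.95-fold higher and so fell just short of the cut-off, and Myd88 had nearly equal values. Of the 9 genes that held 0.1 FPKM or more in both libraries, 5 were thus called lower, 1 higher and 3 neither.

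**Figure D1:**
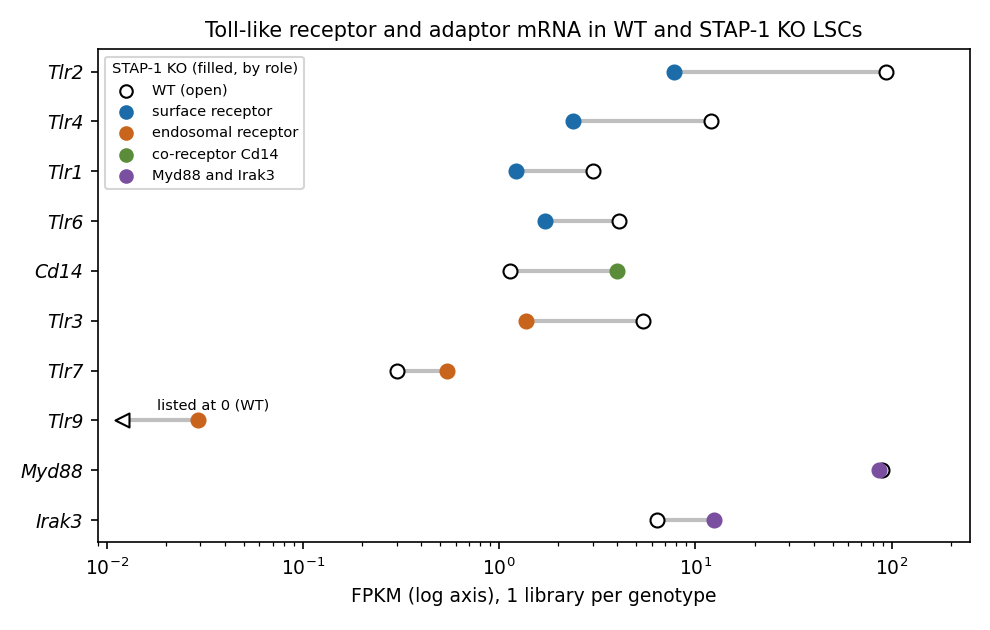
FPKM (log axis) of each gene in the WT library (open circles) and the STAP-1 KO library (filled circles, colored by role), 1 library per genotype. The filled circle lies left of the open one for Tlr2, Tlr4, Tlr1, Tlr6 and Tlr3, right of it for Cd14, Tlr7 and Irak3, and on it for Myd88; Tlr9 was listed at 0 in WT.

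The largest difference among the 10 genes was in Tlr2 (ENSMUSG00000027995, chr3:83836272-83841767, minus strand, GRCm38). It was at 93.1 FPKM in WT and 7.80 FPKM in STAP-1 KO LSCs, about 1957 and 229 estimated reads. In WT cells it was the highest of the 10 genes and stood above 91.5% of all genes with a value above 0, whereas in STAP-1 KO cells it stood above 52.0%. The fold was 11.9 lower (95% counting interval 10.4 to 13.8), a log2 ratio of -3.56. Only 1.91% of the 10974 genes that averaged 1 FPKM or more had a lower log2 ratio.

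Tlr4, the lipopolysaccharide receptor (ENSMUSG00000039005, chr4:66827584-66930284, plus strand), was at 12.0 FPKM in WT and 2.39 FPKM in STAP-1 KO cells. It was 5.02-fold lower (3.99 to 6.35), a log2 ratio of -2.28. Relative to Tlr2, however, the Tlr4 level was 0.129 in WT and 0.307 in STAP-1 KO cells, since Tlr2 differed more.

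Tlr1 and Tlr6, the alternative partners of Tlr2, are neighbors on chromosome 5 (Tlr1, ENSMUSG00000044827, chr5:64924679-64933563; Tlr6, ENSMUSG00000051498, chr5:64952031-64960097; both minus strand). Tlr1 was at 3.0 FPKM in WT and 1.21 FPKM in STAP-1 KO cells, 2.47-fold lower (1.60 to 3.79). Tlr6 was at 4.07 and 1.72 FPKM, 2.37-fold lower (1.73 to 3.32). Both intervals reach below the 2-fold cut-off but not down to 1. The ratio of Tlr1 to Tlr6 FPKM was 0.736 in WT and 0.707 in STAP-1 KO cells, so the pair kept about the same proportion, while Tlr2 stood 22.9 times above Tlr6 in WT and 4.54 times in STAP-1 KO cells. Over Tlr1, Tlr2 stood 31.1 and 6.42 times. The division of reads between Tlr1 and Tlr6 is uncertain, because the genes share 340 identical windows of 75 bases, the read length, which are 10.3% of those of Tlr1 and 9.25% of those of Tlr6. The longest of the 4 identical stretches, 229 bases of coding sequence, is printed because a read from it cannot be assigned to either gene by its sequence. It lies at chr5:64925537-64925765 in Tlr1 and chr5:64953828-64954056 in Tlr6 (GRCm38, minus strand, 5′ to 3′), and it has no capitals since every base is shared.
Tlr1 and Tlr6: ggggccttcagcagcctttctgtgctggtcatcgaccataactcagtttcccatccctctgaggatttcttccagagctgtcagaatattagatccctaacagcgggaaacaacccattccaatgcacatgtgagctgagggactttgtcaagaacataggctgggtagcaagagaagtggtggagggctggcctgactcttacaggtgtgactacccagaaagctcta

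Cd14 (ENSMUSG00000051439, chr18:36725067-36726798, minus strand) differed in the other direction from the receptor it serves. It was at 1.14 FPKM in WT and 4.0 FPKM in STAP-1 KO cells, about 12.2 and 60.0 estimated reads, and was 3.52-fold higher (1.90 to 7.29). Its log2 ratio of 1.73 was above that of 97.0% of genes that averaged 1 FPKM or more. The ratio of Cd14 to Tlr4 FPKM was 0.0949 in WT and 1.67 in STAP-1 KO cells, so that Cd14 was below Tlr4 in WT and above it in STAP-1 KO cells. Neither ratio was corrected for the trend with transcript length described below. Genes about as long as Cd14 had a median log2 ratio of 0.44, and genes about as long as Tlr4 one of -0.30. The order of Cd14 and Tlr4 in STAP-1 KO cells is therefore uncertain. Ly96, which binds Tlr4 directly, was at 55.4 and 13.3 FPKM, and its ratio to Tlr4 was 4.62 and 5.57.

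**Figure D2:**
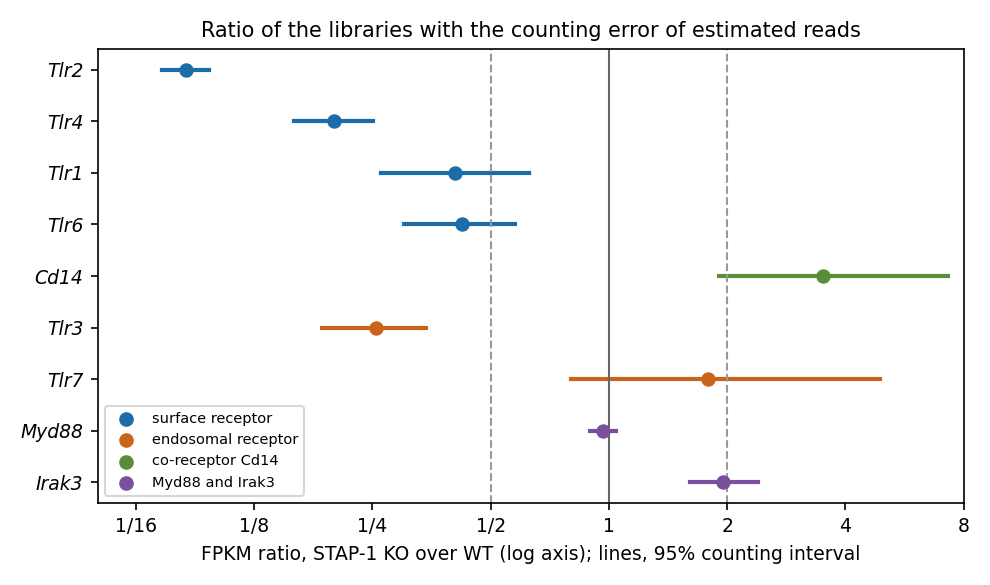
FPKM ratio of the STAP-1 KO to the WT library (log axis; points) with 95% counting intervals (horizontal lines) for the 9 genes that held 0.1 FPKM or more in both libraries; dashed lines mark the 2-fold cut-off and the solid line a ratio of 1. The intervals of Tlr2, Tlr4 and Tlr3 lie wholly beyond the cut-off, those of Tlr1, Tlr6, Cd14 and Irak3 cross it, and those of Tlr7 and Myd88 include 1.

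Of the endosomal receptors only Tlr3 was called. Tlr3, the sensor of double-stranded RNA (ENSMUSG00000031639, chr8:45395665-45411080, minus strand), was at 5.38 FPKM in WT and 1.37 FPKM in STAP-1 KO cells, a log2 ratio of -1.90 and a 3.93-fold lower level (2.92 to 5.38). Of its 75-base windows 4.28% also occur in the annotated gene Gm45542. Tlr7 (ENSMUSG00000044583, chrX:167304929-167330558, minus strand) was at 0.302 and 0.540 FPKM, about 8.33 and 20.9 estimated reads. Its ratio of 1.79 had an interval from 0.799 to 4.90, so that a difference in either direction was not detectable at this depth. Because Tlr7 is X-linked, sex-linked transcripts were read beside it: Xist was listed at 0 in WT and at 0.849 FPKM in STAP-1 KO cells, and the Y-linked gene Ddx3y was at 33.9 and 18.6 FPKM. Their part in the Tlr7 values or in other levels was not tested. The libraries thus also differed in sex-linked transcripts, and with 1 library per genotype this cannot be told apart from genotype. Tlr13, Tab3 and Irak1, described below, are X-linked too. Tlr9 (ENSMUSG00000045322, chr9:106222598-106226883, plus strand) was listed at 0 in WT and at 0.0293 FPKM, about 1.0 read, in STAP-1 KO cells, and no fold is given.

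The median log2 ratio was -1.76 over the 4 surface receptors and 0.37 over the 3 endosomal receptors. The endosomal median was that of Tlr9, whose log2 ratio rests on a single read and the added 0.1 FPKM. Without Tlr9 it was -0.61 over Tlr3 and Tlr7, and the surface median was lower by 1.14 on the log2 scale instead of 2.13. No test of surface against endosomal receptors can be made from 1 library per genotype. The 7 receptors together summed to 118 FPKM in WT and 15.1 FPKM in STAP-1 KO cells. Tlr2 made up 79.0% of that sum in WT and 51.8% in STAP-1 KO cells. Without Tlr2 the sum was 24.7 and 7.26 FPKM.

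Myd88 (ENSMUSG00000032508, chr9:119335934-119341411, minus strand) was at 89.4 FPKM in WT and 86.4 FPKM in STAP-1 KO cells. The ratio was 0.965 with a counting interval from 0.894 to 1.04, and about 1173 and 1584 estimated reads stood behind the values. The log2 ratio was -0.05 and ranged from -0.41 to 0.05 over the settings tried, so that it has no stable sign. Of its 75-base windows, 5.68% overlap the opposite-strand gene Acaa1a, at 32 and 30.9 FPKM, and the library kit does not mark strand, so those reads cannot be told apart. Among the receptors that use this adaptor, Tlr1, Tlr2, Tlr4 and Tlr6 were called lower and Tlr7 and Tlr9 were not called. The ratio of Tlr2 to Myd88 FPKM was 1.04 in WT and 0.0903 in STAP-1 KO cells.

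Irak3 (ENSMUSG00000020227, chr10:120141648-120202130, minus strand) was at 6.38 FPKM in WT and 12.5 FPKM in STAP-1 KO cells. Its 1.95-fold higher level (1.60 to 2.39) was just below the cut-off, a log2 ratio of 0.96 that was above that of 87.4% of genes. Scaling both libraries to the same median ratio, upper quartile or total FPKM put it past the cut-off. Relative to Myd88, Irak3 stood at 0.0713 in WT and 0.144 in STAP-1 KO cells. A small part of the gene, 1.31% of its 75-base windows, overlaps the opposite-strand gene Tmbim4, at 203 and 223 FPKM.

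The order of the levels differed between the libraries. In WT cells Tlr2 and Myd88 led and did not differ beyond counting error (ratio 1.04, interval 0.968 to 1.12), followed by Tlr4, which was above Irak3 by a ratio of 1.88 (1.54 to 2.31). Irak3 and Tlr3 did not differ beyond counting error, nor did Tlr6 and Tlr1, and Cd14, Tlr7 and Tlr9 were the lowest. In STAP-1 KO cells Myd88 was followed by Irak3, Tlr2, Cd14 and Tlr4 in that order, each apart from the next beyond counting error. Irak3 exceeded Tlr2 by a ratio of 1.60 (1.35 to 1.89) and Cd14 exceeded Tlr4 by 1.67 (1.19 to 2.33). These ratios between genes were not corrected for transcript length, which differs most between the shorter Cd14 and the longer Tlr4. Tlr6, Tlr3 and Tlr1 came next, with intervals of the ratios between neighbors that include 1.

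**Figure D3:**
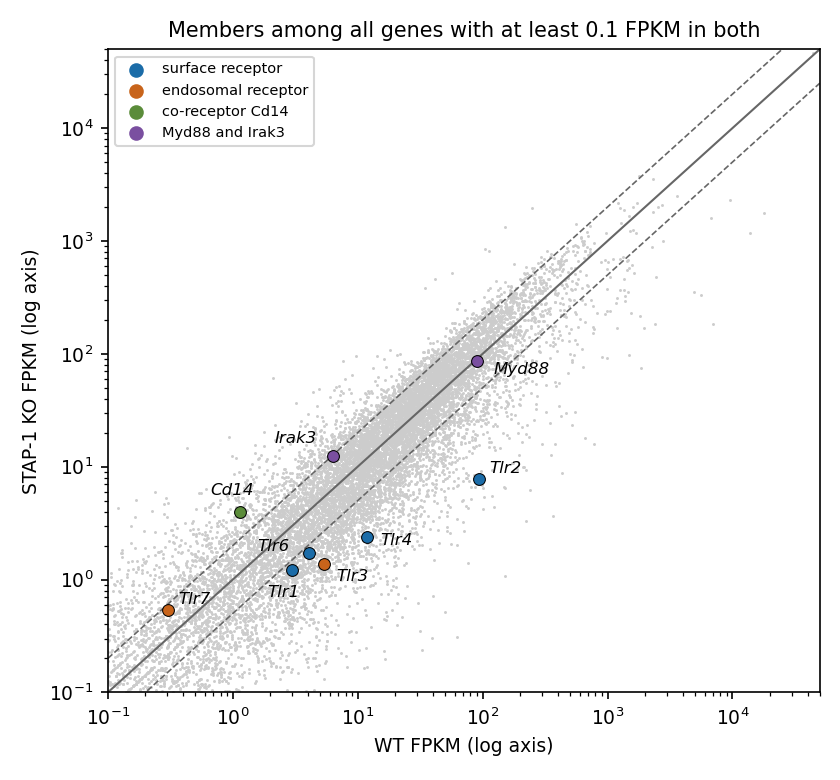
FPKM in the STAP-1 KO library against the WT library (both log axes) for the 12507 genes that held 0.1 FPKM or more in both (gray) and the 9 genes examined here that pass that floor (colored by role); the solid line marks equal values and the dashed lines the 2-fold cut-off. Tlr2, Tlr4, Tlr3, Tlr1 and Tlr6 lie under the lower dashed line, Cd14 above the upper one, and Myd88 on the solid line.

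Over the 10 genes the median log2 ratio was -0.62, and without Tlr9 it was -1.20, against -0.04 over the 10974 genes that averaged 1 FPKM or more. Over all genes the log2 ratio was lower for longer transcripts (rank correlation -0.40 across 10864 genes, which are not independent replicates). The receptors have long transcripts, from 3014 bases for Tlr2 to 4407 bases for Tlr3, and they were therefore also set beside the 2903 comparable genes of that length. Of those, 22.7% were called lower and 8.37% higher, and the median log2 ratio of the 2585 that averaged 1 FPKM or more was -0.16. When the median of genes of like length and GC content was taken off, the log2 ratio was -3.59 for Tlr2, -2.32 for Tlr4, -1.69 for Tlr3, -1.39 for Tlr1 and -1.19 for Tlr6. The same 5 receptors stayed past 2-fold. Cd14, with a short transcript of 1641 bases, had a log2 ratio of 1.42 after this correction, Irak3 of 0.93 and Myd88 of -0.22.

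**Figure D4:**
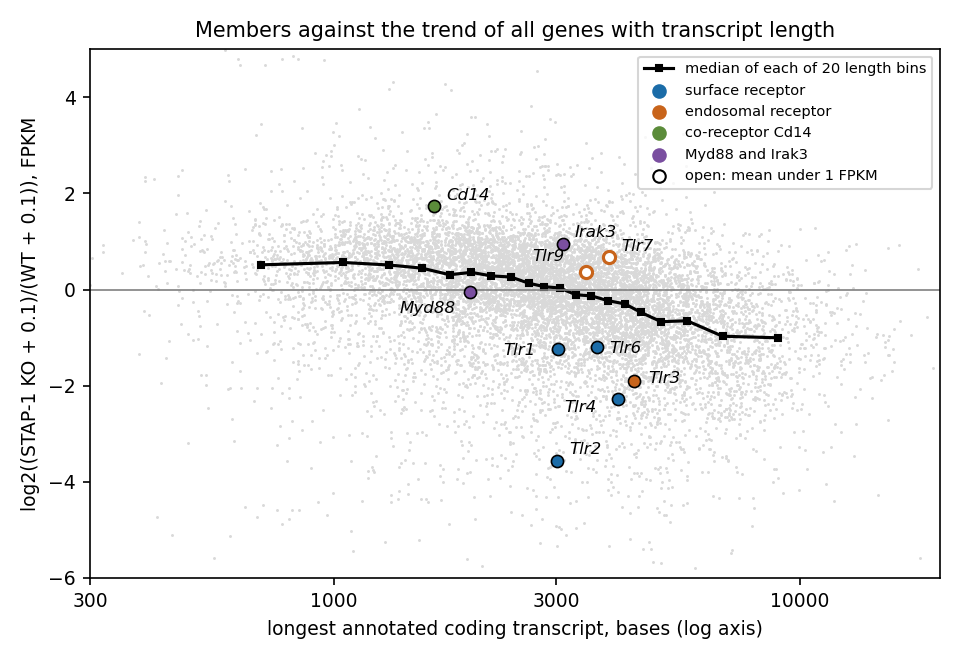
Log2 ratio of the libraries against the length of the longest annotated coding transcript (log axis) for genes that averaged 1 FPKM or more (gray), with the median of each of 20 length bins (black squares) and the 10 genes examined here (colored by role; open, mean under 1 FPKM); a few genes fall outside the vertical range. Tlr2, Tlr4, Tlr3, Tlr1 and Tlr6 lie under the black line by more than 1 log2 unit, Cd14 lies above it, and Myd88 slightly under it.

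The start regions of the genes were read for motifs of factors known in this pathway or lineage. RefSeq (GRCm38.p6) held windows of 250 bases before to 50 bases after the start for 7 of the 10 genes, 10 windows in all, and none for Tlr4, Tlr7 and Cd14. Both strands were searched, and a match is a description of letters, not a site. The NF-kB motif was found in the windows of Tlr2 and Tlr3, and in 8.46% of all 32851 windows. The STAT motif TTCNNNGAA was found for Myd88, Tlr1 and Tlr6, and in 8.30% of all windows. The PU.1 motif GAGGAA was found for Irak3, Tlr1 and Tlr9 (28.3% of all windows), and the GATA motif AGATAA for Tlr3 and Tlr9 (11.2%). The NF-kB matches are printed because they belong to the surface and the endosomal receptor with the lowest ratio in their groups, with the motif in capitals between flanking bases. The Tlr2 match begins 172 bases before the RefSeq start (chr3:83841761-83841790, minus strand), where a second match overlaps it by all but 1 base, and the Tlr3 match begins 211 bases before (chr8:45410572-45410601, minus strand). Both 30-base stretches overlap an exon annotated by GENCODE, whose transcript begins upstream of the RefSeq start. For Tlr2 the annotated gene begins at chr3:83841767 on the minus strand, so only flanking bases after the motif overlap it, not the motif.
Tlr2: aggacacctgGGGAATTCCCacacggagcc
Tlr3: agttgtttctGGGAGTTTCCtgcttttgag

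The remaining genes of the pathway were described from 7 lists of 65 genes, of which 60 could be compared; 27 were called lower, 9 higher and 24 neither, beside 22.9% and 12.3% of all genes, with a median log2 ratio of -0.75. After the correction for length and GC content 22 were lower and 5 higher, beside 18.4% and 11.4% of all genes, and the median was -0.46. Without the early response genes, 19 of 47 were lower and 6 higher with a median of -0.73, and after the correction 14 and 3 with a median of -0.33. Of the other Toll-like receptors, Tlr13, an endosomal sensor of bacterial ribosomal RNA, was at 4.63 FPKM in WT and 0.226 FPKM in STAP-1 KO cells. Tlr11, which senses profilin of protozoa, was at 3.03 and 0.614 FPKM, and its relative Tlr12 was higher, at 0.809 and 2.0 FPKM. Tlr5, the flagellin receptor, was listed at 0 in WT and at 0.0319 FPKM in STAP-1 KO cells, and Tlr8 at 0 in both. Lower levels were thus not confined to receptors of the surface.

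Of 13 receptor partners, chaperones and proteases, 5 were lower and 2 higher, and 5 and 1 after the length and GC correction, beside the shares of all genes given for the 7 lists. Ly96 was lower, as was Ctss, a protease that cleaves endosomal receptors (67.9 and 18.2 FPKM). Cd36, a scavenger receptor that hands lipids to the Tlr2 and Tlr6 pair, was at 6.65 and 2.36 FPKM, and Lgmn, another endosomal protease, at 4.64 and 1.55 FPKM. Lbp, the plasma protein that passes lipopolysaccharide to Cd14, was higher together with Cd14, at 1.5 and 15.6 FPKM. Unc93b1, which carries the endosomal receptors to the endosome, was not called at 22.5 and 33.1 FPKM. Its ratio to Tlr3 was 4.18 in WT and 24.2 in STAP-1 KO cells.

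Among the 9 other adaptors, Irak kinases and Trafs, 4 were lower and 1 higher, beside 22.9% and 12.3% of all genes, with a median log2 ratio of -0.49. After the length and GC correction Irak2 alone was lower (-1.45) and Ticam2 alone higher (2.76), with log2 ratios of -0.93 for Ticam1, -0.52 for Traf6 and -0.13 for Traf3 and a median of -0.13. The corrected counts, 1 of 9 in each direction, are not above the 18.4% lower and 11.4% higher of all genes. Ticam2 (TRAM), which bridges Tlr4 to Ticam1, was higher, at 0.698 FPKM in WT and 4.78 FPKM in STAP-1 KO cells. Ticam1, the adaptor of Tlr3, was lower, at 5.80 and 2.62 FPKM. The signaling kinase Irak2 was at 13.9 and 4.07 FPKM, Traf6 at 18.4 and 8.91 FPKM and Traf3 at 5.68 and 2.26 FPKM. The kinases Irak1 and Irak4 and the bridging adaptor Tirap were not called: Irak1 was at 52.6 and 51.8 FPKM, Irak4 at 14.9 and 10.8 FPKM and Tirap at 7.34 and 5.19 FPKM. Of 10 downstream kinases and their subunits 2 were lower, Tab3 (6.91 and 1.49 FPKM) and Tab2 (16.4 and 7.65 FPKM), which link Traf6 to the kinase Map3k7, and 8 were not called, a share of lower genes near the 22.9% of all genes. The median log2 ratio was -0.64, and after the correction it was -0.19, with Tab3 (-1.43) past 2-fold and Tab2 (-0.83) not.

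Of 8 other inhibitors of the pathway, 5 were lower and 0 higher, beside 22.9% and 12.3% of all genes. Their median log2 ratio was -1.34, whereas Irak3 was not called. After the length and GC correction 4 were lower, beside 18.4% of all genes. The call lost is that of Tnip1, which was only 2.00-fold lower before the correction (1.74 to 2.31). Il1rl1 (ST2), the receptor of interleukin 33 that also holds back Toll-like receptor signals and is abundant on mast cells, was at 521 FPKM in WT and 23.3 FPKM in STAP-1 KO cells. Tnfaip3 (A20), an enzyme that removes ubiquitin chains from Traf6, was at 183 and 28.4 FPKM. Tollip was at 108 and 30.6 FPKM and Socs1 at 78.2 and 24.1 FPKM. Of the 4 interferon regulatory factors, 1 was lower and 2 higher, beside 22.9% and 12.3% of all genes. Irf7 (21.1 and 46.5 FPKM) and Irf1 (29.4 and 59.6 FPKM) were higher, Irf5 was lower (36.1 and 12.4 FPKM) and Irf3 was not called. After the correction Irf7 (0.95) and Irf1 (0.93) were no longer past 2-fold. That left 1 lower and 0 higher, beside 18.4% and 11.4% of all genes. Of 13 early response genes, 8 were lower and 3 higher, beside 22.9% and 12.3% of all genes, and 8 and 2 after the correction. The higher call lost is that of Cxcl1, which rests on about 1.0 and 4.0 estimated reads. Il6 was at 384 and 52.1 FPKM, Ccl3 at 485 and 67.3 FPKM, Il1b at 199 and 39.5 FPKM and Nfkbiz at 151 and 33.2 FPKM, whereas the chemokine Cxcl10 was higher, at 16.9 and 77.1 FPKM. These genes also answer to other stimuli, and no ligand was given in this experiment.

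**Figure D5:**
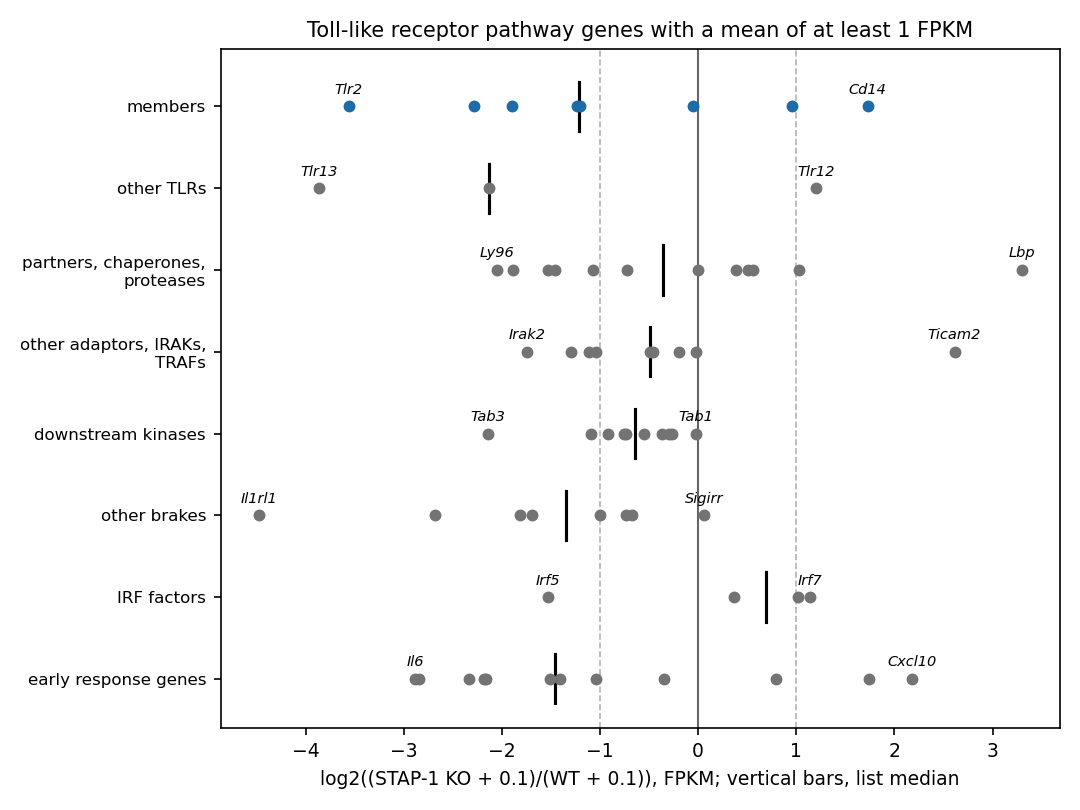
Log2 ratio of the libraries for each gene that averaged 1 FPKM or more, by list (rows; blue, the genes examined here; gray, the other genes of the pathway), with the list median as a vertical bar and the genes of lowest and highest ratio named. Il1rl1, Tlr13 and Tlr2 have the lowest ratios of the genes named, and Lbp, Ticam2 and Cxcl10 the highest.

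Markers of other cell types that the gate could hold were read in the same way, and their counts of calls stand beside the 22.9% lower and 12.3% higher among all genes. In a bulk sample, fewer cells of a type and less RNA per cell cannot be told apart. All 9 mast cell and basophil markers were lower, and none of them was at 0. Their summed level was 51391 FPKM in WT and 5220 FPKM in STAP-1 KO cells, a 9.85-fold difference beside the 11.9-fold difference of Tlr2. That sum is weighted to the most abundant markers, and single markers were from 2.82-fold to 49.1-fold lower. Monocyte and macrophage markers summed to 235 and 244 FPKM, with 4 of 11 lower and 3 higher. Neutrophil markers summed to 922 and 4321 FPKM, with 6 of 11 lower and 4 higher. The neutrophil sum was higher only through those 4, among them Mpo (248 and 1973 FPKM), Ctsg (104 and 841 FPKM) and Prtn3 (57.4 and 525 FPKM). The 6 lower markers went the other way. Dendritic cell markers summed to 60.5 and 30.1 FPKM, with 4 of 6 lower and 1 higher. LSK and stem cell markers summed to 1057 and 355 FPKM, with 4 of 9 lower and 1 higher, and 2 lower after the length and GC correction, beside 18.4% of all genes. The sums were 4.55 and 19.3 FPKM for B cell markers (0 of 3 lower, 2 higher), most of it Cd79b at 3.10 and 17.8 FPKM, with Pax5 and Ebf1 at 0 in both libraries, 469 and 803 FPKM for T and NK cell markers (1 of 6 lower, 2 higher), nearly all of it Nkg7 at 464 and 795 FPKM, 1142 and 619 FPKM for erythroid markers (3 of 7 lower, 1 higher), among them the near-identical copies Hba-a2 (773 and 15.9 FPKM) and Hba-a1 (34.8 and 379.8 FPKM), whose division is uncertain, and 194 and 131 FPKM for megakaryocyte markers (1 of 5 lower, 1 higher). Of the higher calls in the lymphoid lists, that of Igll1 (B cell) rests on about 0.99 and 3.0 estimated reads and that of Cd4 (T cell) on about 3.0 and 14. In the marker lists other than LSK and stem, the length and GC correction moved each count of lower or higher calls by at most 1, and it left all 9 mast cell and basophil markers lower. The part of these cell types in the levels of the receptors, Cd14 and Irak3 was not tested.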

How the data were processed

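CML LSCs of each genotype, WT and STAP-1 KO, gave 1 RNA-seq library, prepared with a SMART-Seq v4 kit and Nextera XT. The labels name a miRNeasy kit for RNA and the study's methods an RNeasy kit. The authors mapped single reads of 75 bases to mm10 and deposited FPKM values from Cuffnorm; the submitters' processing notes name TopHat2 2.0.13, Bowtie2 2.2.3, SAMtools 0.1.19 and Cufflinks 2.2.1. The gene annotation and library scaling are not given in the sources used here.

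Ratios, calls, lists and depth were computed in Python (version 3.11.15, with scipy 1.17.1, pandas 2.3.3 and numpy 2.4.6) and tested on simulated data. Symbols were matched to GENCODE M21 (GRCm38), 20911 as written and 1900 by a former symbol, which left 473 unmatched. Effective depth came from genes below 0.3 FPKM with 1 annotated transcript: 48.8% of 320 such values in WT and 49.6% of 389 in STAP-1 KO lay within 0.01 of a whole read. Depth limits the precision of low genes, and intervals cover counting error only. Length and GC corrections used 20 bins.

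The genes and all lists were chosen with earlier results of these data known. All 10 genes, Stap1, up to 5 genes of each pathway list whose log2 ratio was largest in size when 1 FPKM was added and up to 3 of each marker list could be named; list genes at 0 in both libraries (Tlr8, Pax5, Ebf1) could be named as such, and Irak1, Irak4, Tirap, Unc93b1, Tlr5, Xist, Igll1, Cd4, Cxcl1 and the overlapping genes were named after their values were seen. Alternatives changed the pseudocount, floor, cut-off, scaling, corrections and genes included.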

Additional observations from a re-analysis of the deposited data

How the results depend on the processing

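The 5 lower calls held under every floor, scaling and correction tried and at a 1.5-fold cut-off, where 32.8% of all genes were lower, and were 3 at 3-fold and 2 at 4-fold, where 13% and 8.56% of all genes were. The calls use ratios with nothing added, so the pseudocount could not change them. With 1 FPKM added, however, the log2 ratios of Tlr1 (-0.85) and Tlr6 (-0.90) fell short of 2-fold. The higher calls were 2 instead of 1 under each of the 3 scalings (Irak3 with Cd14) and after the length correction alone (Tlr7 with Cd14), 3 at 1.5-fold and 0 at 4-fold, where 25.6% and 2.40% of all genes were higher. Of the other pathway genes, 5 instead of 9 were higher after the length and GC correction, chosen after seeing the data. The median log2 ratio of the 10 genes was -0.45 at a pseudocount of 1 FPKM, -0.52 with libraries scaled to the same total FPKM, which shifts all genes by 0.10, -0.74 after the length correction, -1.22 over genes that averaged 1 FPKM or more and -1.20 without Tlr9, the last chosen after seeing the data. The surface minus endosomal difference was -2.63 at a pseudocount of 0.01 FPKM, -1.46 at 1 FPKM, -2.49 after the length and GC correction, -1.61 with Cd14 among the surface receptors, -2.28 without Tlr3 and -1.14 without Tlr9. Apart from the construction of each setting, the causes were not tested. No direction reversed among these results. No paired analysis was possible because there was 1 library per genotype, and no library could be left out for the same reason. Depth limited Tlr7 and Tlr9.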

Other observations

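Myd88 also serves receptors of the interleukin 1 family, and their transcripts were read after the values of the Toll-like receptors had been seen. Il18r1, the ligand-binding chain of the interleukin 18 receptor, was at 1.49 FPKM in WT and 7.31 FPKM in STAP-1 KO LSCs, 4.89-fold higher (95% counting interval 3.57 to 6.90). Its partner chain Il18rap was at 32.5 and 4.41 FPKM, 7.37-fold lower (6.37 to 8.57). The chains of 1 receptor thus lay on opposite sides of the cut-off, and Il18r1 was below Il18rap in WT and above it in STAP-1 KO cells. Il1r1, the interleukin 1 receptor, was at 6.36 and 3.53 FPKM and its shared partner Il1rap at 3.66 and 6.45 FPKM, neither past the cut-off as deposited. Once length and GC content were corrected for, Il1rap was past it, with a log2 ratio of 1.04. Il1rl2, a receptor of interleukin 36, was at 3.60 and 2.96 FPKM.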
